A study of Macaca mulatta with 2 samples.

Results

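CXCR3-gated cells were 105 of the 7601 single cells that passed quality control, and 105 of the 7445 of these that held RNA of the T cell receptor complex genes CD3D, CD3E or CD3G (CD3 cells), a share of 1.41% (95% exact Clopper-Pearson interval 1.15 to 1.70%). They were selected on measured values, namely at least 2 unique molecules (UMIs) of CXCR3, at least 1 UMI of the CD3 genes together and no UMI of CX3CR1, EOMES, CCR6, CCR9, CCR4, FOXP3 or TRAV10. The cells came from 1 sample, the blood of 1 untreated rhesus monkey aged 6 years, with no second animal, time or treatment. CD4+ cells were taken from fresh mononuclear cells with releasable magnetic beads, and those that also bound CD8 beads were kept as double-positive (DP) T cells. Each cell gave a count of RNA molecules per gene and a count of CD4 and CD8 antibody tags. The gated cells held 530125 RNA UMIs in all, with a median of 4268 UMIs and 1464 genes a cell. They are compared below with the 6330 CD3 cells that had no CXCR3 UMI (CXCR3-zero cells, median 3586 UMIs) and, where the excluded genes matter, with the 3854 of these that also had no UMI of the 7 excluded genes.

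CXCR3 is a chemokine receptor that binds CXCL9, CXCL10 and CXCL11, chemokines that interferon-gamma induces in inflamed tissue. It is carried by many memory and effector T cells, and in helper T cells it is commonly used to mark the Th1 type, whose master regulator TBX21 (T-bet) drives both CXCR3 and interferon-gamma. Naive T cells, which have not met antigen, carry little of it and instead carry CCR7, the receptor that brings them to lymph nodes.

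The gate lay at the low end of detection, and the count of cells in it moved with depth. Among the gated cells, 72 held 2 CXCR3 UMIs, 20 held 3, 11 held 4 and 2 held 5, or 258 UMIs in total. Just outside the gate, 564 CD3 cells held exactly 1 CXCR3 UMI and no excluded gene, and 66 held 2 or more CXCR3 UMIs together with an excluded gene, most often CX3CR1 (29 cells), CCR9 (16) or EOMES (15). Of all CD3 cells, 14.98% held any CXCR3 UMI. The share of CD3 cells that were gated was 0.691% (0.143 to 2.01%) below 2000 UMIs, 1.02% (0.664 to 1.48%) from 3000 to 4000 UMIs and 3.04% (1.998 to 4.43%) from 6000 UMIs on. Gated cells were deeper than the cells they are compared with. When each cell was thinned to 2000 UMIs, 102 gated cells remained, 73 of them with a CXCR3 UMI and 31 with at least 2. Cells with B cell genes and no CD3 RNA (86 cells, median 4138 UMIs) also held CXCR3 at a low level, with 8 cells having a UMI. Their summed level was 30.2 CPM (15.6 to 52.8). Gated cells had 487 CPM (429 to 549.8), a level set by the rule of at least 2 UMIs a cell. CPM (counts per 1000000) are a gene's UMIs scaled to the summed RNA UMIs of a group, and the intervals of levels are 95% exact Poisson intervals. Because some B cells express CXCR3, the share in them is not a pure measure of free RNA.

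**Figure D1:**
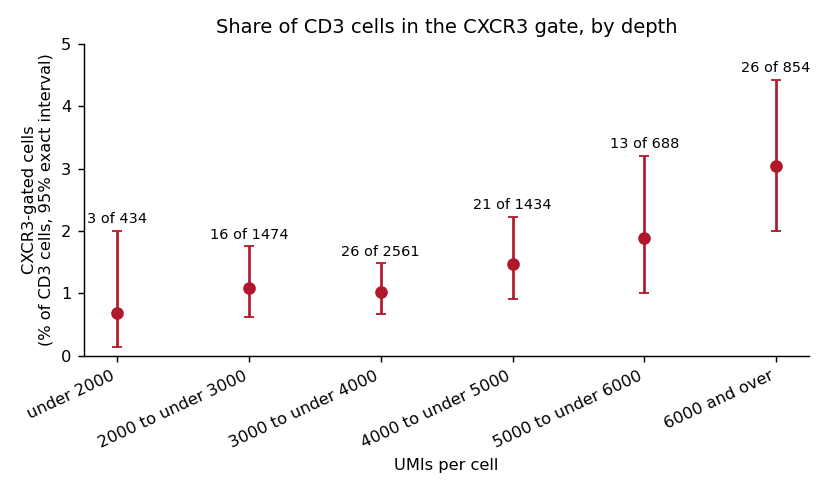
Share of CD3 cells that met the CXCR3 gate (vertical axis, percent, with 95% exact intervals) in 6 bins of UMIs per cell (horizontal axis), each point marked with its number of gated and of CD3 cells. The share was 0.691% in the shallowest bin and 3.04% in the deepest.

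The gene CXCR3 itself (ENSMMUG00000032424) lies on chromosome X from 68624847 to 68625943 on the minus strand of Mmul_10, in the RefSeq annotation of that build matched by symbol, as do the positions that follow. Of the genes given as markers of these cells, KLRB1 (chromosome 11, 10090828 to 10103486, plus strand), which encodes the lectin-like receptor CD161, was found at 275 CPM against 135 CPM, a log2 ratio of 1.02 (0.77 to 1.26), with the 95% exact interval in brackets, taken from how the UMIs of both groups divide. KLRB1 had 146 UMIs in 44 gated cells, with at most 12 in a cell, and its share of cells after thinning was 31.4% of gated and 16.4% of CXCR3-zero cells, with none of the 79 thinned B gene cells holding a UMI. SPINK2 (chromosome 5, 76799639 to 76809692, plus strand), a serine protease inhibitor of the Kazal family, stood at 151 CPM against 83.3 CPM, a log2 ratio of 0.86 (0.52 to 1.18), with 80 UMIs in 35 cells. CRYBG2 (chromosome 1, 198428393 to 198469683, plus strand), a crystallin-domain protein, had 8 UMIs in 6 gated cells, 15.1 CPM against 3.73 CPM, a log2 ratio of 2.02 (0.76 to 3.05), too few for the comparison across genes below. KLRB1 or SPINK2 was held by 61 of the 105 gated cells, and both by 18. The ratio of SPINK2 was below 1.5-fold in several settings, with a log2 ratio of 0.53 after thinning, 0.52 by the mean over cells, 0.53 with no gene excluded and 0.55 without cells with cycling genes. Without cells over 8000 UMIs (12 gated cells) its log2 ratio was 0.33, whereas that of KLRB1 was 1.27. These 3 genes were put forward with results of these data in view, so their higher level is a description and not independent evidence.

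Most Th1 genes were too sparse to compare, and none of those abundant enough passed 1.5-fold. TBX21, the Th1 master regulator, had 16 UMIs in 14 gated cells and a level of 30.2 CPM against 26.9 CPM, a log2 ratio of 0.16 (-0.65 to 0.87). STAT4, which carries the interleukin-12 signal, was at 69.8 CPM against 68.1 CPM, a log2 ratio of 0.04 (-0.47 to 0.51). Neither reached 1.5-fold on CPM + 10, the size used below to call a gene higher or lower. Interferon-gamma itself (IFNG) was close to the detection limit, with 8 UMIs in 7 gated cells and 15.1 CPM against 6.66 CPM, a log2 ratio of 1.18 (-0.06 to 2.19). The interleukin-12 receptor chain IL12RB2 had 5 UMIs and a log2 ratio of 1.37 (-0.29 to 2.64), and the chemokine receptor CXCR6 9 UMIs and 0.99 (-0.16 to 1.95). These 3 genes lay above 0 with intervals that held it, and at 3 or more CXCR3 UMIs (33 cells) the log2 ratios were 1.57 for IFNG, 2.44 for IL12RB2, -0.79 for CXCR6 and -0.86 for TBX21. The interleukin-18 receptor chains IL18R1 and IL18RAP had 5 and 2 UMIs. Their log2 ratios were -0.14 (-1.77 to 1.10) and 0.48 (-2.59 to 2.39). RUNX3, a further listed Th1 gene, lay below 0 at -0.39 (-0.88 to 0.06), and at -1.32 at 3 or more CXCR3 UMIs. The interleukin-12 receptor chain IL12RB1 had a log2 ratio of 0.01 (-1.13 to 0.95). CCL5, a chemokine of memory and cytotoxic T cells, was found in 44 gated cells at 330.1 CPM against 274 CPM, a log2 ratio of 0.27 (0.04 to 0.48), but its log2 ratio was -0.0038 by the mean over cells. After thinning, 5.88% of gated and 5.75% of CXCR3-zero cells held TBX21. Of the 20 listed Th1 genes, 18 were present by symbol, 11 of these were below the level for comparison, 2 of them with no UMI in gated cells, and 7 reached it. Of those 7, 0 were higher and 0 lower by 1.5-fold, with a median log2 ratio of 0.03 on CPM + 10, against 0.01 over all genes compared. Over all genes 2.90% were higher and 4.41% lower, so a count of 0 among 7 genes is near the background and is no result about them. The Th1-like label is thus neither borne out nor contradicted by these RNA counts beyond CXCR3, which the gate used, and the cells are called here by their gate alone.

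Genes that act with CXCR3 include its ligands, its G protein and the proteins that end its signal. The ligand genes CXCL9 and CXCL11 had no UMI in gated cells, and CXCL10 had 2 UMIs, both in 1 cell. GNAI2, a subunit of the inhibitory G protein that chemokine receptors signal through, was at 136 CPM against 119 CPM, a log2 ratio of 0.19 (-0.17 to 0.53). ARRB2 (beta-arrestin 2), which takes activated receptors off the surface, was at 160.3 CPM against 200.2 CPM, a log2 ratio of -0.32 (-0.65 to -0.01). DPP4 (CD26), a surface protease that trims CXCR3 ligands, was at 75.5 CPM against 91.7 CPM, a log2 ratio of -0.28 (-0.77 to 0.17). Of the regulators of G protein signaling, RGS1 stood at 181 against 156 CPM, RGS19 at 86.8 against 59.9 CPM and RGS10 at 20.7 against 38.9 CPM. Of the 14 compared genes on this list, RGS10 alone passed 1.5-fold, a count near the 4.41% lower over all genes, with a log2 ratio of -0.91 (-1.91 to -0.06) and 11 UMIs in gated cells. It was below 1.5-fold with no gene excluded (-0.056) and at 3 or more CXCR3 UMIs (-0.39).

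Across the transcriptome, 6682 genes reached 10 CPM in all CD3 cells, leaving out CXCR3 and the excluded genes. Of these, 194 were at least 1.5-fold higher in gated than in CXCR3-zero cells on CPM + 10 (2.90%), and 295 were at least 1.5-fold lower (4.41%). Against CXCR3-zero cells with the same exclusions, 266 were higher (3.98%) and 278 lower (4.16%). With 1 sample there is no replicate spread and no test, so these counts describe these cells only and all intervals cover counting error alone. The median gene compared had 17 UMIs in the gated cells, the genes called higher a median of 27 and those called lower a median of 4. Among the 2207 genes at 50 CPM or more, 51 were higher and 39 lower. Of the 228 genes at 500 CPM or more, 3 were higher and 1 was lower. The 3 were CD74, the class II invariant chain, VIM (vimentin) and ACTG1 (gamma actin), and the 1 was GZMB (granzyme B), of which ACTG1 falls outside the naming rule and was chosen after its value was seen. Of 56 named genes whose log2 ratio of CPM was past 1.5-fold, 12 stayed past it under every alternative run, namely KLRB1, CRYBG2, IL2RB, LMNA, PTTG1, MKI67, IFNG and IL12RB2 on the higher side (the intervals of these 2 held 0) and ADGRG1, CA6, TRBV7-2 and TRBV7-3, the last 2 as bounds, on the lower. The other 44 were below 1.5-fold in at least 1 setting, most often at the wider gate of 1 or more CXCR3 UMIs. ACTG1 stood at 2705 CPM against 1562 CPM, a log2 ratio of 0.79 (0.72 to 0.87) and was present in 100 of 105 gated cells. It was below 1.5-fold at 1 or more CXCR3 UMIs (0.26), without cells over 8000 UMIs (0.53) and by the mean over cells (0.56).

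**Figure D2:**
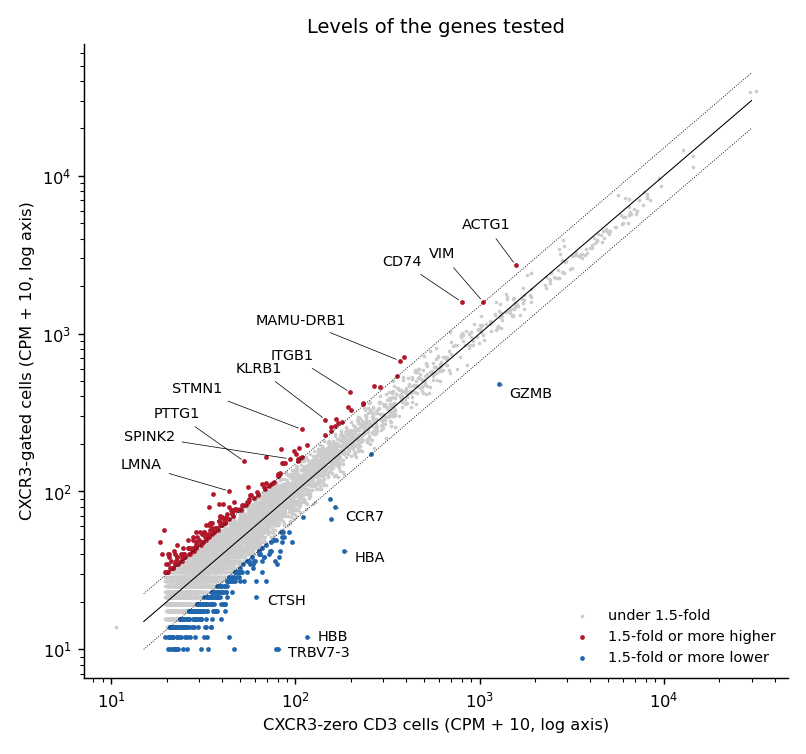
Level of each of the 6682 genes compared, in CXCR3-zero cells (horizontal axis) and gated cells (vertical axis), both as CPM + 10 on log axes, with the line of equal levels and dotted lines at 1.5-fold. Genes past 1.5-fold are in red (194 higher) and blue (295 lower), most of them at low levels, while GZMB stands apart among abundant genes.

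Genes of memory T cells lay mostly on the higher side, with 15 of 20 above a log2 ratio of 0. Of the 20 compared, 4 were higher by 1.5-fold and 0 lower, where 2.90% and 4.41% of all genes were, or 6 and 0 against cells with the same exclusions, where 3.98% and 4.16% of all genes were, and the median log2 ratio of the list was 0.23. ITGB1 (CD29), an integrin chain that rises as T cells become memory cells, had 415 CPM (362 to 474) in gated and 188 CPM (183 to 194) in CXCR3-zero cells, a log2 ratio of 1.14 (0.94 to 1.33). It was found in 58 of 105 gated cells, with at most 24 UMIs in a cell, and after thinning in 40.2% of gated and 23.2% of CXCR3-zero cells. LMNA (lamin A/C), a nuclear envelope protein, was at 90.5 CPM against 33.8 CPM, a log2 ratio of 1.42 (0.97 to 1.84) from 48 UMIs in 20 cells. VIM, an intermediate filament protein, was at 1586 CPM against 1033 CPM, a log2 ratio of 0.62 (0.52 to 0.72), and LGALS3 (galectin-3), given because it was 1 of the 4 called, at 249 CPM against 154 CPM, a log2 ratio of 0.69 (0.43 to 0.94). S100A4, a calcium-binding protein abundant in memory cells, was at 3931 CPM against 2819 CPM, a log2 ratio of 0.48 (0.42 to 0.54) and passed 1.5-fold against the cells with the same exclusions (0.59), with the comparator weighted to the depth of gated cells (0.65) and at 3 or more CXCR3 UMIs (0.71). It was lower with no gene excluded (0.28), at 1 or more CXCR3 UMIs (0.31), by the mean over cells (0.31), after thinning (0.33), without cells over 8000 UMIs (0.33) and without cycling cells (0.41). The other abundant members differed less. CRIP1 was at 2401 against 1902 CPM, S100A11 at 1549 against 1283 CPM, S100A10 at 1422 against 1473 CPM and IL7R, the interleukin-7 receptor, at 1147 against 1135 CPM. Without cells over 8000 UMIs the log2 ratios of ITGB1 and LMNA were 0.86 and 0.96, and those of VIM and LGALS3 were 0.41 and 0.56, below 1.5-fold. VIM was also below it after thinning (0.44), by the mean over cells (0.49), without cycling cells (0.45) and at 1 or more CXCR3 UMIs (0.32). The same held for VIM with no gene excluded (0.51) and with totals without mitochondrial and ribosomal genes (0.56). LGALS3 was also below it after thinning (0.30), without cycling cells (0.55) and at 1 or more CXCR3 UMIs (0.45). ITGB1 was at 0.58 at 1 or more CXCR3 UMIs.

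Naive genes were on the lower side. Of 14 compared, 3 were lower by 1.5-fold and 0 higher (4.41% and 2.90% over all genes), or 5 and 0 against cells with the same exclusions (4.16% and 3.98%), and the list had a median log2 ratio of -0.29. CCR7 was at 69.8 CPM against 153 CPM, a log2 ratio of -1.13 (-1.64 to -0.67), from 37 UMIs in 23 gated cells. It was below 1.5-fold at 1 or more CXCR3 UMIs (-0.58), with no gene excluded (-0.56) and after thinning (-0.58). LEF1, a transcription factor of naive T cells, was at 73.6 CPM against 114 CPM, a log2 ratio of -0.63 (-1.13 to -0.18), and PECAM1 (CD31), an adhesion molecule lost after activation, at 41.5 CPM against 76.4 CPM, a log2 ratio of -0.88 (-1.56 to -0.28). ACTN1 (alpha-actinin 1), the third gene lower by 1.5-fold, had 10 UMIs in gated cells and a level of 18.9 against 33.7 CPM. Its log2 ratio was -0.84 (-1.90 to 0.05), an interval that held 0. It was below 1.5-fold with no gene excluded (-0.16), at 1 or more CXCR3 UMIs (-0.54) and with the mitochondrial share from named genes alone (-0.54). PECAM1 was below 1.5-fold at 1 or more (-0.50) and at 3 or more CXCR3 UMIs (-0.49). LEF1 was below it with no gene excluded (-0.42) and without cycling cells (-0.50). On CPM + 10, LEF1 was past 1.5-fold only against cells with the same exclusions. PECAM1 and ACTN1 fall outside the naming rule and are given because they were among the 3 genes called. CD7, a surface protein of young T cells, was at 209 against 302 CPM, SATB1, a chromatin organizer, at 75.5 against 101 CPM, KLF2, which holds T cells in a resting state, at 357 against 418 CPM and S1PR1, the receptor by which T cells leave lymph nodes, at 255 against 223 CPM. After thinning, a UMI of CCR7 or LEF1 was found in 21.6% (14.04 to 30.8%) of gated and 28.9% (27.8 to 30.1%) of CXCR3-zero cells, and in 11.4% of the B gene cells, which carry CCR7 themselves. By sign, 15 of 20 memory genes lay above 0 and 11 of 14 naive genes below it, where 51.6% of all genes lay above, and naive genes were still detected in part of the gated cells.

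**Figure D3:**
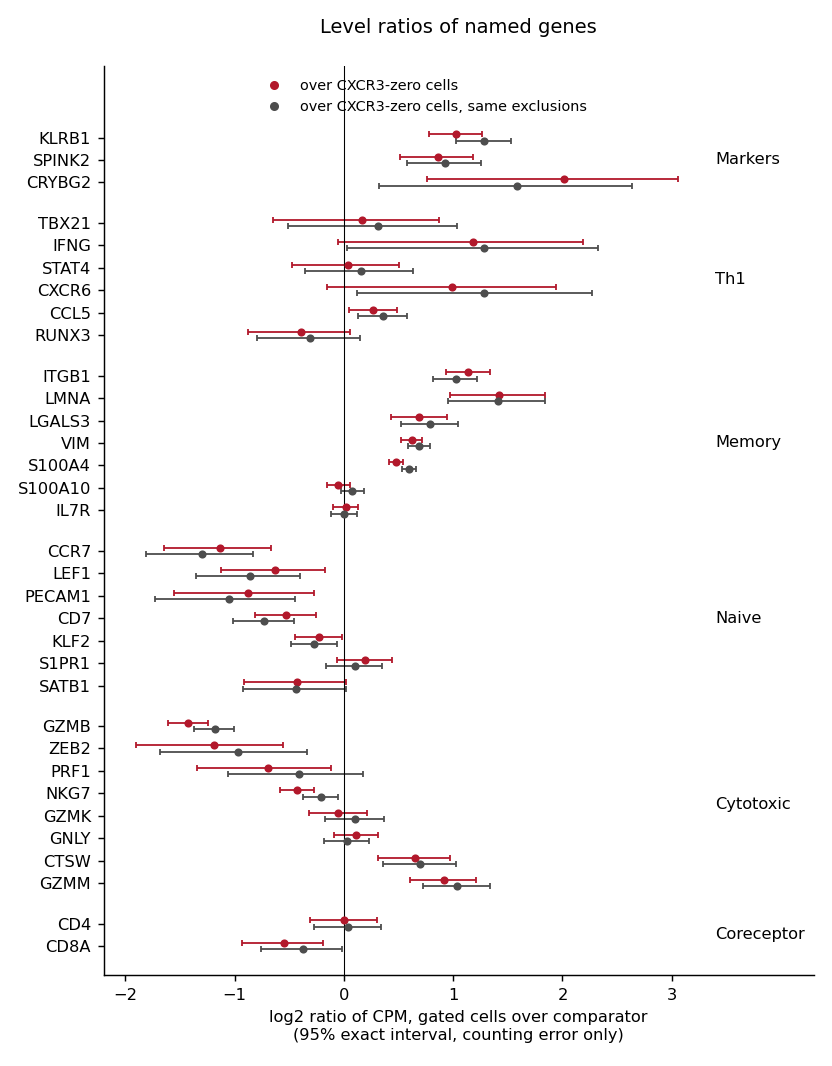
Log2 ratio of the CPM of named genes in gated cells over CXCR3-zero cells (red) and over CXCR3-zero cells with the same exclusions (grey), with 95% exact intervals for counting error. Most memory genes shown lie above 0 and most naive genes below it. Of the Th1 genes, TBX21 and STAT4 lie near 0, and IFNG and CXCR6 lie above it with wide intervals. CCL5 lies slightly above 0, and RUNX3 lies below it with an interval over CXCR3-zero cells that holds 0. GZMB and GZMM lie on opposite sides.

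Cytotoxic genes lay on both sides. GZMB, a protease that cytotoxic cells release into their targets, had 469.7 CPM (413 to 532) in gated and 1263 CPM (1249 to 1277) in CXCR3-zero cells, a log2 ratio of -1.43 (-1.61 to -1.25), and -1.18 (-1.37 to -1.003) against cells with the same exclusions. Its 249 UMIs lay in 29 gated cells, with a median of 5 and at most 36 in a cell, so that 76 gated cells held none. The log2 ratio was -0.46 at 1 or more CXCR3 UMIs, below 1.5-fold, -0.78 with no gene excluded and -2.35 at 3 or more. After thinning, 23.5% of gated and 41.4% of CXCR3-zero cells held GZMB, and 5.06% of the B gene cells. Of the other listed cytotoxic genes, ZEB2, ADGRG1 and PRF1 were lower by 1.5-fold. ZEB2, a transcription factor of terminal effector cells, was at 37.7 CPM against 86.0 CPM, a log2 ratio of -1.19 (-1.90 to -0.56), but -0.30 at 1 or more CXCR3 UMIs. ADGRG1 (GPR56), an adhesion receptor of cytotoxic cells, had 3 UMIs in gated cells, 5.66 against 25.2 CPM. PRF1 (perforin) was at 45.3 CPM against 73.5 CPM, a log2 ratio of -0.70 (-1.35 to -0.12). It was below 1.5-fold at 1 or more CXCR3 UMIs (-0.46), with the comparator weighted to the depth of gated cells (-0.42) and without cycling cells (-0.57). By contrast, GZMM (granzyme M) was at 179 CPM against 95.2 CPM, a log2 ratio of 0.91 (0.60 to 1.21) and was found in 48 gated cells, and CTSW, a cathepsin of cytotoxic lymphocytes, was at 155 CPM against 98.5 CPM, a log2 ratio of 0.65 (0.32 to 0.97). Both were below 1.5-fold after thinning (0.50 and 0.50) and at 1 or more CXCR3 UMIs (0.40 and 0.54). These 5 genes other than GZMB were named because they passed 1.5-fold, after their values were seen. GZMK, a granzyme of less differentiated memory cells, stood at 228 CPM against 237 CPM, a log2 ratio of -0.05 (-0.32 to 0.21), but its ratio varied with the gate, at -1.68 for 3 or more CXCR3 UMIs, -0.45 at a mitochondrial limit of 10% and 0.45 with no gene excluded. Of the other abundant granule genes, GNLY (granulysin) was at 390.5 against 361 CPM, NKG7 at 624 against 840.3 CPM, CST7 at 411 against 483 CPM and SRGN, the core of the granule, at 1547 against 1541 CPM. Of the 15 cytotoxic genes compared, 2 were higher and 4 lower, against 2.90% and 4.41% of all genes. The gate removed cells with CX3CR1 or EOMES, genes that are themselves marks of cytotoxic cells, and against cells with the same exclusions PRF1 had a log2 ratio of -0.41 (-1.06 to 0.17) and was no longer past 1.5-fold, while the other 5 were.

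Genes shared with innate-like lymphocytes were higher in part. Beside KLRB1, 2 of the 8 genes compared were higher, against 2.90% of all genes. IL2RB, the interleukin-2 and interleukin-15 receptor beta chain, was at 162 CPM against 91.2 CPM, a log2 ratio of 0.83 (0.50 to 1.14) and was found in 49 gated cells, and MAP3K8, a kinase of inflammatory signaling, at 49.0 CPM against 25.3 CPM, a log2 ratio of 0.95 (0.33 to 1.52). NCR3 (NKp30), an activating receptor of natural killer cells, was the 1 gene lower and was named for that, with 4 UMIs in gated cells and 7.55 against 20.4 CPM. NCR3 was below 1.5-fold at 1 or more (-0.51) and at 3 or more CXCR3 UMIs (-0.46) and with no gene excluded (-0.39). MAP3K8 was below it at 1 or more CXCR3 UMIs (0.49). The signaling adaptors HCST and TYROBP stood at 943 against 883 CPM and 86.8 against 95.2 CPM, and KLRF1, a receptor of natural killer cells, at 50.9 against 70.8 CPM. The list had 5 of 8 genes above 0 and a median log2 ratio of 0.30.

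Genes of other helper types are given next, in lists too short for their counts to be read against the share over all genes (2.90% higher, 4.41% lower). The gate itself had removed cells with CCR6, CCR4 or FOXP3. Of 12 Th17 genes, 9 had no UMI in gated cells, CCR6 by the gate. For each of the other 8, a count of 0 allows a level of up to 5.66 CPM. RORA, a nuclear receptor of Th17 and innate cells, was at 108 against 109.7 CPM, and CTSH (cathepsin H) was the 1 Th17-listed gene lower, at 11.3 CPM against 51.3 CPM, a log2 ratio of -2.18 (-3.63 to -1.05), but at -0.50 with no gene excluded. The Th2 genes GATA3 and IL4R stood at 75.5 against 71.2 CPM and 102 against 111 CPM, with 0 of 3 compared higher and 0 lower. Against cells with the same exclusions, 1 of the 3 was higher, MAF, a factor of several helper types, with 19 UMIs and a log2 ratio of 0.80 (0.05 to 1.47). Over CXCR3-zero cells the log2 ratio of MAF was 0.74, but 0.28 at 1 or more CXCR3 UMIs and 0.06 after thinning. Of 6 regulatory T cell genes compared, BATF, a factor of activated T cells, was higher at 37.7 against 21.6 CPM from 20 UMIs, and TIGIT, an inhibitory receptor, was at 104 CPM against 67.0 CPM, a log2 ratio of 0.63 (0.22 to 1.02). Both were higher against cells with the same exclusions, with log2 ratios of 1.11 (0.37 to 1.76) and 0.83 (0.41 to 1.22). BATF was below 1.5-fold at 1 or more CXCR3 UMIs (0.06), without cells over 8000 UMIs (0.34), without cycling cells (0.53) and with no gene excluded (0.57). TIGIT was below it in 5 settings, with the lowest log2 ratio of 0.27 at 1 or more CXCR3 UMIs. The follicular helper gene PDCD1 (PD-1) was at 147 against 129 CPM, with 0 of 6 genes of that list past 1.5-fold. Among 19 chemokine receptors, 11 had no UMI in gated cells, 4 of them by the gate. CXCR4 was at 249 against 322 CPM, and CCR7 was lower as given above. CCR2, an inflammatory chemokine receptor outside the naming rule and chosen after its value was seen, had 8 UMIs, 15.1 against 8.61 CPM. The integrin chains ITGA4, ITGB2 and ITGAL and the selectin ligand SELPLG stood at 402 against 502 CPM, 257 against 298 CPM, 157 against 139 CPM and 224 against 179.9 CPM, and ITGB1 was the 1 adhesion gene of 13 past 1.5-fold.

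Among activation and interferon genes, 0 of 12 costimulation, 2 of 13 immediate-early and 1 of 13 interferon-stimulated genes passed 1.5-fold, where 2.90% of all genes were higher and 4.41% lower, and the signs are given beside the 51.6% of all genes that lay above 0. Of 13 immediate-early genes compared, 11 lay below 0, the median log2 ratio was -0.19, and 0 were higher and 2 lower, EGR1 with 14 UMIs in 4 gated cells (26.4 against 67.6 CPM) and NR4A1 with 4 UMIs (7.55 against 20.6 CPM), both chosen after their values were seen. The sign of both turned in other settings. FOS and ZFP36, genes that also respond to cell isolation, were at 1709 against 1886 CPM and 1745 against 1743 CPM. The early activation marker CD69 was at 606 against 566 CPM, the adhesion receptor CD2 at 330.1 against 254 CPM and CD52 at 3565 against 2869 CPM, with 0 of 12 costimulation genes past 1.5-fold, 11 of them above 0 and a median log2 ratio of 0.28. Of 13 interferon-stimulated genes compared, 10 lay above 0, with a median log2 ratio of 0.32. ISG15 was higher, at 56.6 CPM against 31.6 CPM, a log2 ratio of 0.84 (0.26 to 1.37), but without cells over 8000 UMIs its log2 ratio was 0.23. ISG20 was at 357 against 243 CPM and IRF1 at 383 against 312 CPM.

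Of genes of dividing cells, MKI67, STMN1 and PTTG1 were higher in gated cells, and STMN1 was concentrated in a few of them. The cycling genes MKI67, TOP2A, TYMS, RRM2, CDK1 and BIRC5 were counted together. Of gated cells, 5 or 4.76% (1.56 to 10.8%) held 3 or more of their UMIs, against 0.458% of CXCR3-zero cells (0.307 to 0.657%). At least 1 of their UMIs was held by 15 gated cells (14.3%, 8.22 to 22.5%) and by 4.63% of CXCR3-zero cells. MKI67, a marker of dividing cells, had 20 UMIs in 11 gated cells and a level of 37.7 CPM against 8.37 CPM, a log2 ratio of 2.17 (1.43 to 2.84). STMN1 (stathmin), a microtubule regulator, was at 238 CPM against 98.2 CPM, a log2 ratio of 1.28 (1.01 to 1.53) and PTTG1 (securin), which holds sister chromatids together, at 145 CPM against 42.7 CPM, a log2 ratio of 1.77 (1.41 to 2.10). Those 5 cells held 74 of the 126 STMN1 UMIs and 29 of the 77 PTTG1 UMIs, and PTTG1 was found in 31 gated cells. Without cells with 3 or more cycling gene UMIs in either group the log2 ratio of STMN1 was 0.40 and that of PTTG1 1.25. A cell with more UMIs reaches such a count more easily, and 12 gated cells (11.4%) but 3.59% of CXCR3-zero cells had over 8000 UMIs. The part of depth in these shares of cells with cycling genes was not tested.

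B cell genes were concentrated in 2 gated cells. With 3 or more UMIs of B cell genes, these 2 cells held all 31 UMIs of MS4A1 (CD20), all 37 of IGHM, the immunoglobulin mu chain, and 194 of the 837 of CD74, and B gene counts of this size were found in 1.63% of CXCR3-zero cells as well. CD74, which escorts class II molecules, was at 1579 CPM against 789 CPM, a log2 ratio of 1.001 (0.90 to 1.10), and MAMU-DRB1, a class II beta chain of a multigene family whose members can share reads, at 664 CPM against 358 CPM, a log2 ratio of 0.89 (0.73 to 1.04). When cells with 3 or more B cell gene UMIs were left out of both groups, the log2 ratio of CD74 was 1.55 and that of MAMU-DRB1 1.10. Without cells with 3 or more cycling gene UMIs they were 0.73 and 0.45, the latter below 1.5-fold. CD74 was below 1.5-fold with the comparator weighted to the depth of gated cells (0.55) and at 1 or more CXCR3 UMIs (0.42). MAMU-DRB1 was below it at 1 or more CXCR3 UMIs (0.35) and by the mean over cells (0.51). CD74 was found in 63 gated cells. Of the 8 listed B cell genes, 7 had a UMI in gated cells, and the list summed to 1726 CPM against 891 CPM, CD74 being the most abundant of them.

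Other blood cells left little in the gate. Of 6 natural killer cell genes, 4 had no UMI in gated cells, among them NCAM1 and NCR1, and the list summed to 102 CPM against 153 CPM. The 8 monocyte genes summed to 11.3 CPM against 5.47 CPM, with 5 at 0, the 5 platelet genes had no UMI in gated cells, and the plasmacytoid dendritic cell genes summed to 5.66 CPM against 10.3 CPM. The red blood cell genes HBB and HBA were lower in gated cells (1.89 against 105 CPM and 32.1 against 173 CPM), but 2649 of the 2659 HBB UMIs and 3270 of the 4355 HBA UMIs of CXCR3-zero cells lay in 1 cell. None of the 5 listed gamma-delta receptor genes was present by symbol.

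T cell receptor V genes, whose use follows clones and whose near-identical copies can share reads, were among the extremes in both directions. Higher were TRAV19 (82 UMIs in 15 gated cells), TRAV12-3 (93 UMIs in 14) and TRBV10-1 (37 UMIs in 4), with log2 ratios of 1.39 (1.05 to 1.71), 1.26 (0.94 to 1.56) and 1.54 (1.02 to 2.02). Only 3 cells held 36 of the 37 TRBV10-1 UMIs, and without cells over 8000 UMIs the log2 ratios of TRAV19 and TRAV12-3 were 0.17 and 0.05. Lower were TRBV7-3, TRBV7-2 and TRBV7-9, each found in 0 of 105 gated cells, which allows a share of up to 2.86%, and in 4.52, 3.16 and 0.679% of CXCR3-zero cells, the last of which lies under that limit. TRBV24-1 had 1 UMI in gated cells. The remaining genes with a symbol at the extremes were COTL1, which binds actin, at 702 CPM against 379.9 CPM, a log2 ratio of 0.89 (0.73 to 1.04), SLC25A10, a mitochondrial dicarboxylate carrier, at 96.2 CPM against 45.1 CPM, a log2 ratio of 1.09 (0.66 to 1.498), CCDC167 at 75.5 against 36.6 CPM, HMGN3, a chromatin protein, with 1 UMI in gated cells and 1.89 against 21.9 CPM, and CA6, a carbonic anhydrase, with 2 UMIs and 3.77 against 24.99 CPM. The genes CX3CR1, TRAV10, CCR9, CCR6 and EOMES were at 0 by the gate. Genes without a symbol were left out of the naming, and 3 of them that were compared had ratios as large as the named higher genes.

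The coreceptors were measured as RNA and as surface tags, and the gate used neither. CD4 RNA stood at 174 CPM against 173 CPM, a log2 ratio of 0.00 (-0.31 to 0.30), and CD8A RNA at 119 CPM against 174 CPM, a log2 ratio of -0.55 (-0.94 to -0.19), or -0.38 (-0.76 to -0.02) against cells with the same exclusions. A UMI of CD4 was found in 62 gated cells, of CD8A in 36 and of both in 23. On the surface, the CD4 tag had a median of 460 UMIs in gated cells (quartiles 387 and 545) and 374 in CXCR3-zero cells (280 and 488). The CD8 tag had a median of 299 (178 and 494) against 337 (188 and 563). In CXCR3-zero cells with the same exclusions the CD8 median was 318 and the CD4 median 375, and in cells with at least 1 CXCR3 UMI and no excluded gene they were 336 and 435. The lower CD8 median was thus not seen at the wider gate. With no gene excluded the CD8 median was 331, and at 3 or more CXCR3 UMIs it was 244, each against 337 in CXCR3-zero cells. As a share of both tags, CD8 had a median of 41.7% in gated, 48.1% in CXCR3-zero cells and 46.9% in those with the same exclusions. The quartile ranges of the groups overlapped for both tags. B gene cells, which should carry neither tag, had medians of 90 and 139.5. Of the gated cells, 101 exceeded 90% of the B gene cells for CD4, but 46 (43.8%, 34.1 to 53.8%) for CD8, against 50.9% of CXCR3-zero cells and 48.4% of those with the same exclusions. In cells of 2000 to 6000 UMIs the medians were 451 and 366 for CD4 and 292 and 322 for CD8. The beads of the sort selected on both proteins, so the tags describe cells within that selection.

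**Figure D4:**
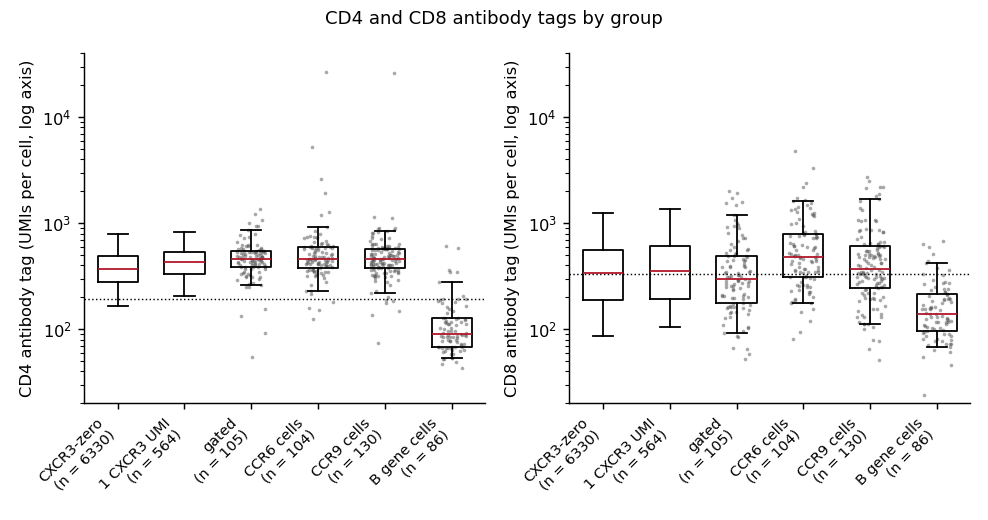
CD4 (left) and CD8 (right) antibody tag UMIs per cell on a log axis in 6 groups of cells, as boxes of the quartiles with the median in red and whiskers from the 5th to the 95th percentile, with single cells as points in groups under 200 cells. The dotted line lies above 90% of the B gene cells, and the gated cells lie mostly above it for CD4 and on both sides of it for CD8.

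The gated cells were not uniform. A UMI of GZMB or PRF1 was found in 38 of them, of GZMK in 28 and of CCR7 or LEF1 in 30, and 38 held none of these, against 15.6% of CXCR3-zero cells. After thinning, cells with none made up 48.0% (38.0 to 58.2%) of gated and 26.5% (25.4 to 27.6%) of CXCR3-zero cells, and 27.6% of those with the same exclusions. The share with GZMB or PRF1 was then 27.5% against 43.8%, and that with GZMK 19.6% against 14.8%. Gated cells thus held more cells with neither a cytotoxic nor a naive transcript of these 5 genes than the other CD3 cells did, at equal depth.

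The markers were unevenly spread over the gated cells. KLRB1 was found in 4 of the 30 gated cells with CCR7 or LEF1 and in 40 of the 75 without, and the former were the deeper (medians of 4997 and 4010 UMIs). CXCR3-zero cells had the same order, with KLRB1 in 9.73% of cells with CCR7 or LEF1 and 30.8% of those without. SPINK2 was found together with ITGB1 in 28 of its 35 gated cells, and ITGB1 in 30 of the 70 cells without SPINK2, but the cells with SPINK2 were deeper (medians of 5599 and 4168 UMIs). GZMK was found in 17 of the 44 cells with KLRB1 and in 5 of the 35 with SPINK2. The CD8 tag had a median of 496 in the gated cells with CCR7 or LEF1 and 267 in the others, while in CXCR3-zero cells the medians were 364 and 323. The 33 gated cells with 3 or more CXCR3 UMIs had a median of 5701 RNA UMIs and held KLRB1 in 17 and SPINK2 in 14 cells, and the 72 with 2 had a median of 4000 and held them in 27 and 21.

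Cells with exactly 1 CXCR3 UMI and no excluded gene (564 cells, median 3775 UMIs) lay between the gated cells and the cells without CXCR3 for the genes given here. KLRB1 was at 113 CPM (108 to 119) in cells without CXCR3 or an excluded gene, 223 CPM (205 to 243) in cells with 1 UMI and 275 CPM (233 to 324) in gated cells. SPINK2 was at 79.6 CPM (75.1 to 84.4), 135 CPM (121 to 151) and 151 CPM (119.7 to 188), and ITGB1 at 204 CPM (197 to 212), 252 CPM (232 to 273) and 415 CPM (362 to 474). For KLRB1 and SPINK2 the intervals of the last 2 groups overlapped. CCR7 went the other way, at 172 CPM (165 to 179), 110.0 CPM (97.2 to 124) and 69.8 CPM (49.1 to 96.2). GZMB did not follow this order by equal steps, at 1067 CPM (1050.1 to 1084), 1015 CPM (975 to 1057) and 469.7 CPM (413 to 532), so that most of its lower level was seen from the second UMI on. CCL5 was at 328 CPM (306 to 352) and 330.1 CPM (283 to 383) in the last 2 groups, whose log2 ratio was 0.01 (-0.24 to 0.25).

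Gates of the same kind on other chemokine receptors gave the nearest groups in size. CD3 cells without CXCR3 that held 2 or more UMIs of CCR6, the receptor of Th17 cells (104 cells, median 4974 UMIs), or of CCR9, the gut-homing receptor (130 cells, median 4479.5 UMIs), and no other excluded gene were taken, while a like gate on CCR4 held 21 cells and was not used. Gated cells stood above both groups for the chemokine CCL5, with log2 ratios of 3.57 (2.81 to 4.44) over CCR6 cells and 3.47 (2.78 to 4.23) over CCR9 cells. For GZMB, lower than in CXCR3-zero cells, the log2 ratios were 2.53 (2.06 to 3.03) and 3.64 (3.03 to 4.31). IL2RB gave 1.46 (0.85 to 2.09) and 2.69 (1.91 to 3.56), and GZMK 2.42 (1.77 to 3.14) and 3.38 (2.57 to 4.29). These effector genes were thus higher in gated cells than in either other group, though CCL5 and GZMK were within 1.5-fold of CXCR3-zero cells. No test of these differences was possible in 1 sample. KLRB1 was also higher than in CCR6 and CCR9 cells, with log2 ratios of 0.99 (0.58 to 1.41) and 2.70 (2.10 to 3.35). ITGB1 and S100A4 differed most from CCR9 cells, with log2 ratios of 3.52 (2.90 to 4.21) and 2.15 (2.01 to 2.28), and less from CCR6 cells, with 0.65 (0.34 to 0.96) and 0.54 (0.44 to 0.64). SPINK2 had a log2 ratio of -0.40 (-0.84 to 0.03) over CCR6 cells, an interval that held 0, and of 0.83 (0.31 to 1.36) over CCR9 cells. IL7R was lower than in both, with log2 ratios of -0.63 (-0.78 to -0.48) and -0.54 (-0.68 to -0.39), and CTSH as well, with -2.85 (-4.37 to -1.61) and -2.15 (-3.70 to -0.87). The CD8 tag had medians of 485 in CCR6 cells and 373 in CCR9 cells, against 299 in gated cells, and the CD4 tag of 459.5, 461 and 460.

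**Figure D5:**
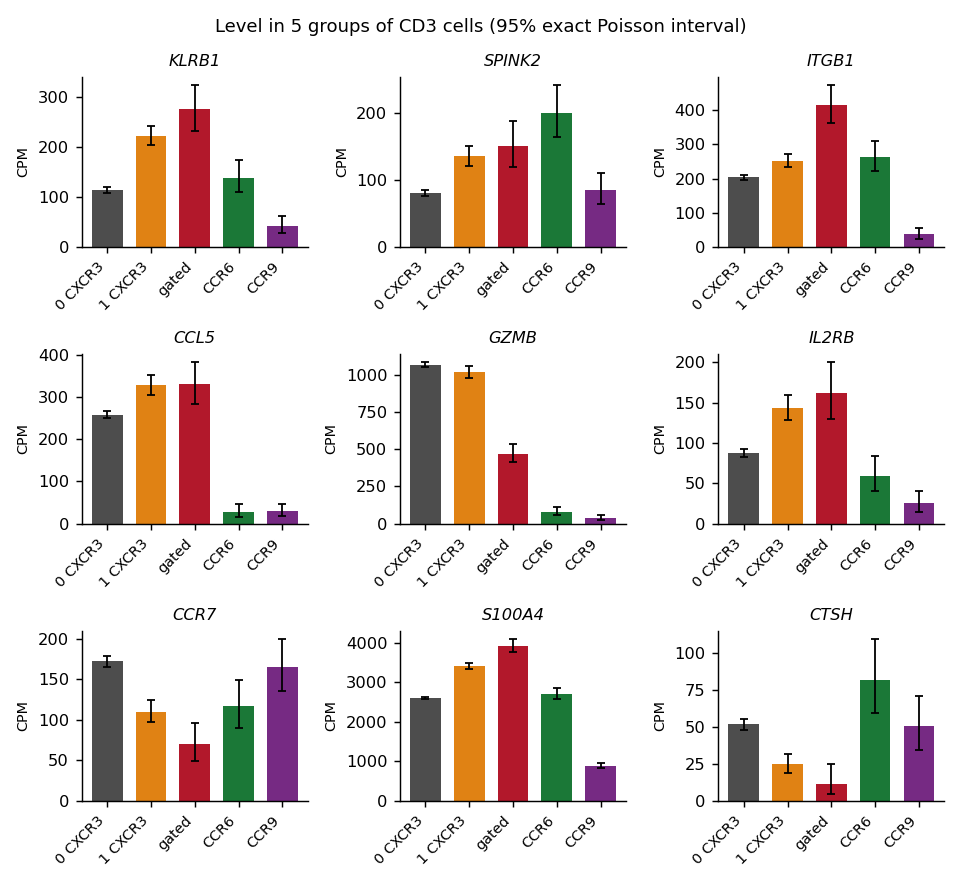
Level (CPM, with 95% exact Poisson intervals) of 9 genes in CD3 cells with 0 and exactly 1 CXCR3 UMI and none of the excluded genes, in gated cells, and in cells gated on CCR6 or on CCR9. KLRB1, ITGB1 and S100A4 are highest in gated cells, SPINK2 in CCR6 cells, and CCL5 and GZMB are far lower in CCR6 and CCR9 cells.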

How the data were processed

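RNA and CD4 and CD8 antibody tags were measured in single cells of 1 sample, in a 5′ droplet library and a tag library of the same cells. Per the labels, the authors used Cell Ranger 3.1.0 with STAR 2.5.1b on Mmul_10 and Seurat 3.1.3. The annotation release was not given in the sources used here. The deposited values were raw UMI counts of 35432 genes and 2 tags in 7923 barcodes, and 720 gene symbols were added from a RefSeq table by gene identifier.

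Kept were cells of 200 to 4000 genes whose mitochondrial share did not pass 20% (13 named genes and 2 features without symbol), the study's limits. No doublet caller was run, and cells with B cell genes were counted and left out as an alternative. No clustering was done. UMIs were summed over the cells of a group and divided by the group's total (CPM). Genes at 10 CPM or more in all CD3 cells were called at 1.5-fold on CPM + 10, and thinning drew 2000 UMIs a cell with a fixed seed. Depth ranged from 820 to 16245 UMIs over the gated cells. Intervals are 95% exact intervals, a count of 0 was bounded by 3 counts, and both cover counting error only. With 1 animal no test was made, and the calculation was tested on simulated data.

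The members and the 26 gene lists were chosen with earlier results of these data known. Named were the gate, marker, Th1 and CXCR3 axis genes, up to 6 genes of each other list with the highest CPM, and the 15 largest and 15 smallest ratios of genes with a symbol whose higher group held 30 UMIs or more. Genes outside this rule are said to be so, or named because they were called. Some listed genes are counted but not reported here by value. Alternatives were other CXCR3 and mitochondrial limits, no excluded genes, other pseudocounts, filters and totals, thinning, depth weighting, and leaving out cells with B cell genes, with cycling genes, over 8000 UMIs or with most HBB, the last 4 and the filter at 50 CPM being chosen after seeing the data. Versions used were Python 3.11.15, numpy 2.4.6, scipy 1.17.1, pandas 2.3.3 and matplotlib 3.10.9.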

Additional observations from a re-analysis of the deposited data

How the results depend on the processing

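No paired analysis was possible because there was 1 animal and no test. The gate held 669 cells at 1 or more CXCR3 UMIs, 33 at 3 or more and 171 with no gene excluded. Counts of genes at 1.5-fold, 194 higher and 295 lower as reported, followed the size of the gate, with 9 and 30 at 1 or more CXCR3 UMIs, 756 and 942 at 3 or more, and 101 and 98 with no gene excluded. They were 450 and 702 with 1 CPM added, 32 and 18 with 50 CPM added, 466 and 801 after thinning, and 51 and 39 among genes at 50 CPM or more. Higher genes were 316 without a filter on level, and lower genes 455 by the mean over cells and 483 with totals without mitochondrial and ribosomal genes. Of 1432 values of the ratios of 103 named genes under the alternatives, 94 had the other sign, in 34 genes. In genes past 1.5-fold 9 did, and of the rest 1203 stayed within the counting interval of the reported ratio (70 with the other sign) and 220 left it (15 with the other sign). The 9 were EGR1 (0.084) and NR4A1 (0.90) with no gene excluded, NR4A1 (0.016) without cells over 8000 UMIs, CD79B (-0.25) without cells with B cell genes and (-0.0086) with the comparator weighted to the depth of gated cells, TRBV10-1 (-0.067), TRBV7-9 (0.28) and TRBV24-1 (0.60) at 1 or more CXCR3 UMIs, and HBB (2.25) without the comparator cell with most HBB. The causes were not tested. Of 56 named genes past 1.5-fold by the ratio of CPM, 44 were below it in at least 1 setting. The counts were 34 at 1 or more CXCR3 UMIs, 15 with no gene excluded and 13 after thinning. KLRB1, ITGB1 and GZMB kept their direction under each alternative run, but at 1 or more CXCR3 UMIs ITGB1 was at 0.58 and GZMB at -0.46, below 1.5-fold.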
